A study of Mus musculus with 24 samples.

Results

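Lynx1 and the genes of the Nogo receptor system are known as molecular brakes on plasticity in the visual cortex, and 7 of them were followed here across 4 groups of mice that differed in light exposure and psilocybin. They were Lynx1, Rtn4, Rtn4r, Rtn4rl1, Rtn4rl2, Lingo1 and Omg, chosen by gene symbol among 55414 genes in the count table. All 7 were among the 14464 genes tested, those with a count of at least 30 in 1 or more libraries.

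RNA from the visual cortex of 24 male C57BL/6J mice aged 8 to 10 weeks was sequenced after poly-A selection. Each group had 6 mice, and each mouse had its own library. The dark and light groups received PBS, and the psilocybin-dark and psilocybin-light groups received psilocybin, a serotonergic psychedelic, at 5 mg/kg. After the injection into the peritoneum, mice were kept in the dark or moved to light, and tissue was collected 2.5 h later. The mice were wild-type, and the dissected tissue held all cell types of the cortex. In such bulk tissue, fewer cells of a type and less RNA per cell cannot be told apart. Group medians of the total count per library lay between about 15364100 and 16966600.

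The light exposure of the libraries is given by 2 sources that disagree. The groups used here follow the headings of the supplementary count table of the study, in which libraries 1 to 6 were dark, 7 to 12 psilocybin-dark, 13 to 18 light and 19 to 24 psilocybin-light. GEO's sample labels give the same drug but the opposite light exposure for all 24 libraries. Under those labels the dark group would be the PBS group in light, so each direction below that names light or dark depends on this choice, while the 4 sets of mice do not. Each mouse is named by its group and the number of its library.

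In the adult cortex, these genes act in 2 systems at the cell surface. Lynx1 encodes a small protein of the Ly6 family, anchored in the membrane, that binds nicotinic acetylcholine receptors and lowers their response to acetylcholine. Rtn4 encodes Nogo, whose longest form, Nogo-A, inhibits neurite growth, and Omg encodes oligodendrocyte myelin glycoprotein, another inhibitory ligand. Both bind the Nogo receptor encoded by Rtn4r, an anchored protein with leucine-rich repeats that signals through partners such as Lingo1. Rtn4rl1 and Rtn4rl2 encode its relatives, the second of which binds myelin-associated glycoprotein. In mice without Lynx1 or without the Nogo receptor, ocular dominance plasticity is known to persist into adulthood.

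Promoter windows from RefSeq (GRCm38.p6), with 250 bases before and 50 after an annotated start, were found for 4 of the 7 genes: Rtn4, Rtn4r, Rtn4rl2 and Lingo1. The windows of the 3 genes that were higher in all comparisons with the dark group are shown up to base 30 after the start, 5′ to 3′ on the strand of the gene. They lie at chr11:29692648-29692927 for Rtn4 (plus strand, the first of 3 starts), chr16:18127392-18127671 for Rtn4r (plus strand) and chr9:56796281-56796560 for Lingo1 (minus strand, the first of 2 starts). Capitals mark a match to the AP-1 site, TGANTCA.
Rtn4: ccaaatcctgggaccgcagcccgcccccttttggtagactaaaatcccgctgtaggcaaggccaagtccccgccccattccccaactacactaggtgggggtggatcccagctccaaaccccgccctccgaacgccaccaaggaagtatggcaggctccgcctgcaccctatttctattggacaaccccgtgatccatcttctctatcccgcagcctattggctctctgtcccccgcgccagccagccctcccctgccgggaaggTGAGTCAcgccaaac
Rtn4r: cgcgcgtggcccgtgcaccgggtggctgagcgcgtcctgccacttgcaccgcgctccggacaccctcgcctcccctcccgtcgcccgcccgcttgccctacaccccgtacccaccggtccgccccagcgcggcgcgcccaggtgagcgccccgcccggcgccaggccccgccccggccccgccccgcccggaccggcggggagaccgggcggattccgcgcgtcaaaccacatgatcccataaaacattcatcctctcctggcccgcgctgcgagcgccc
Lingo1: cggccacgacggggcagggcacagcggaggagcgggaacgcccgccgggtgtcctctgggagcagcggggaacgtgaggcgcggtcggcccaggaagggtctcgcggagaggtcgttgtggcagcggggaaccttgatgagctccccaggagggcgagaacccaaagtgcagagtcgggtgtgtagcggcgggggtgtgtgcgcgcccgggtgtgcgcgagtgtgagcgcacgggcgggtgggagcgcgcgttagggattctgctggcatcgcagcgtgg
The full windows were searched on both strands for 3 motifs of factors known to respond to neuronal activity: the cAMP response element TGACGTCA, the AP-1 site and the EGR site GCGNGGGCG. Of all 32841 windows of this length, 1.79%, 7.81% and 5.55% held them. The Rtn4 window shown held 1 AP-1 match beginning 15 bases after the start, and the window of the second Rtn4 start held 1 EGR match. No match was found in the windows of Rtn4r, Rtn4rl2 or Lingo1. The Rtn4r window was rich in G and C, at 78% of bases with 47 CpG dinucleotides, a higher GC share than in 98.1% of all windows.

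In GRCm39, by the GENCODE annotation, Lynx1 lies at chr15:74619687-74624895, Rtn4 at chr11:29642313-29694331, Rtn4r at chr16:17945241-17970272, Rtn4rl1 at chr11:75084149-75160918, Rtn4rl2 at chr2:84701645-84717388, Lingo1 at chr9:56523065-56703752 and Omg at chr11:79390592-79394915. Omg sits within Nf1 on the opposite strand and shares 0 exon bases with it. Rtn4 shares 1334 exon bases, 17% of its exon length, with Eml6 on the opposite strand. Eml6, at 248 to 509 normalized counts, was far lower than Rtn4 and differed from the dark group in the opposite direction (log2 fold change -0.55, -0.41 and -0.51 in light, psilocybin-dark and psilocybin-light mice). Reads of the 2 genes in the shared bases cannot be told apart, because the strand setting of the counting was not given in the sources used here.

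All 7 genes were well expressed. Counts are given below as normalized counts, which are scaled to 16058300, the mean of the effective library sizes. Per kilobase of exon, the mean over the 24 libraries was 1522 normalized counts for Rtn4, 1244 for Lynx1, 1023 for Lingo1, 726 for Rtn4r, 509 for Omg, 345 for Rtn4rl2 and 307 for Rtn4rl1. The ligand Rtn4 thus had the highest level and exceeded 98.6% of all genes tested on this scale, and the relatives of the receptor had the lowest. Omg was above Rtn4rl2 in 24 of 24 libraries. The other neighbours in this order changed places in some mice, with Rtn4 above Lynx1 in 22 libraries, Lynx1 above Lingo1 in 19, Lingo1 above Rtn4r in 23, Rtn4r above Omg in 20 and Rtn4rl2 above Rtn4rl1 in 19.

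**Figure D1:**
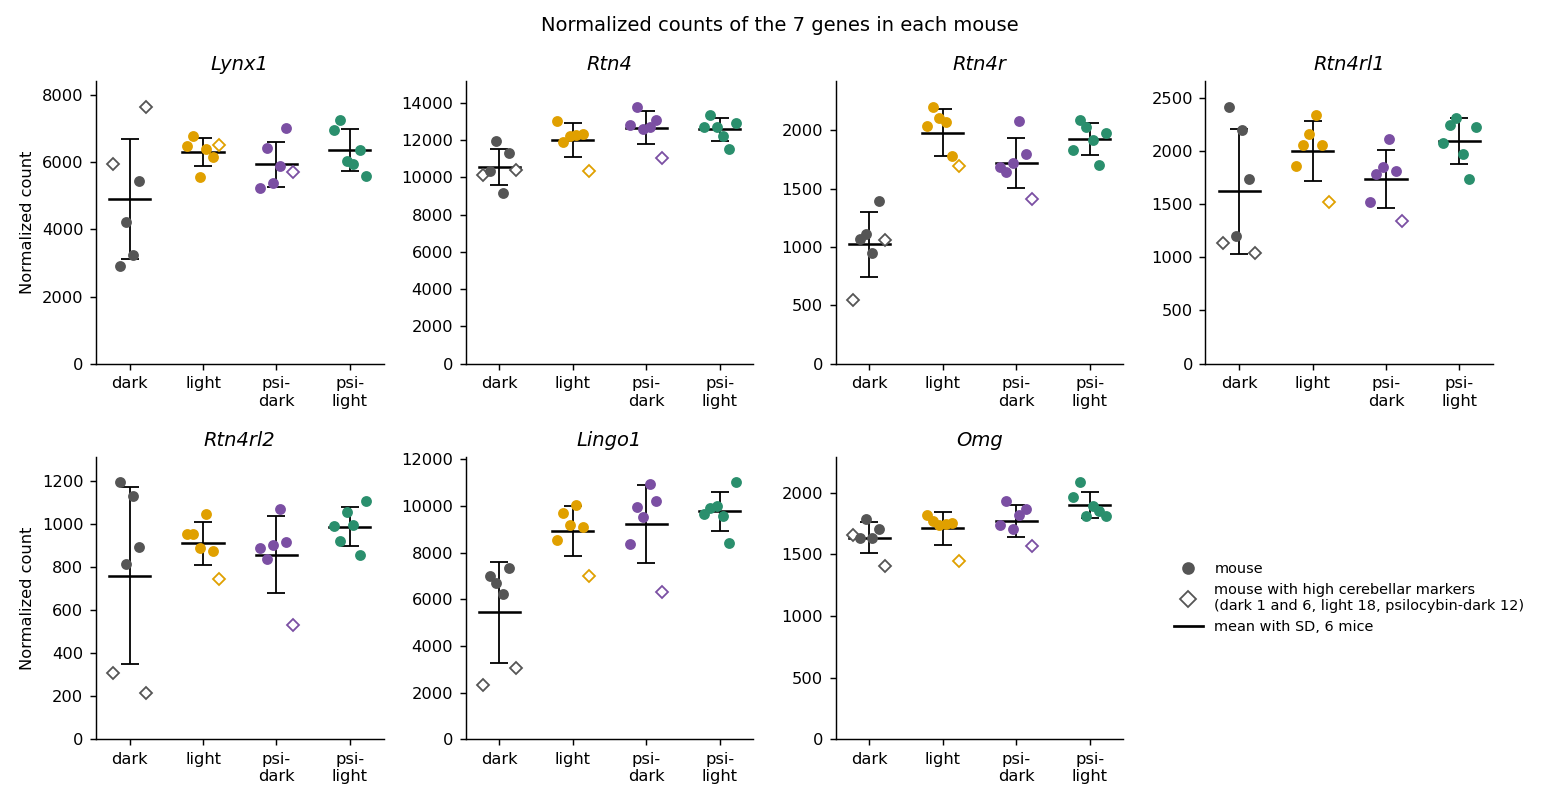
Normalized count (y axis, from 0) of each of the 7 genes in the 24 mice, by group (x axis), with the mean and SD of 6 mice. Rtn4r in the dark group, at 547 to 1392, lies below all mice of the other groups, and open diamonds mark 4 mice whose cerebellar markers were high.

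Libraries that stood apart are described before the comparisons. Dark mice 1 and 6, light mouse 18 and psilocybin-dark mouse 12 had between 12221 and 45619 normalized counts summed over 6 cerebellar markers, against 124 to 1062 in the other 20. Dark mouse 1 also had the lowest sum of 8 markers of cortical glutamatergic neurons, 13330 against 22092 in dark mouse 6 and at least 30420 in the other mice, and the highest sum of 11 oligodendrocyte markers, 136028. The summed hippocampal markers were at 6011 to 7711 in dark mice 2 to 5 and at 1814 to 4632 in the 16 other mice with low cerebellar markers, with the 4 mice apart at 4272 to 4643. No marker of these lists was at 0 in all mice. Each comparison below was also made without the 4 mice, an alternative added after the data were seen, and the part of these markers in the results was not tested except where stated.

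**Figure D2:**
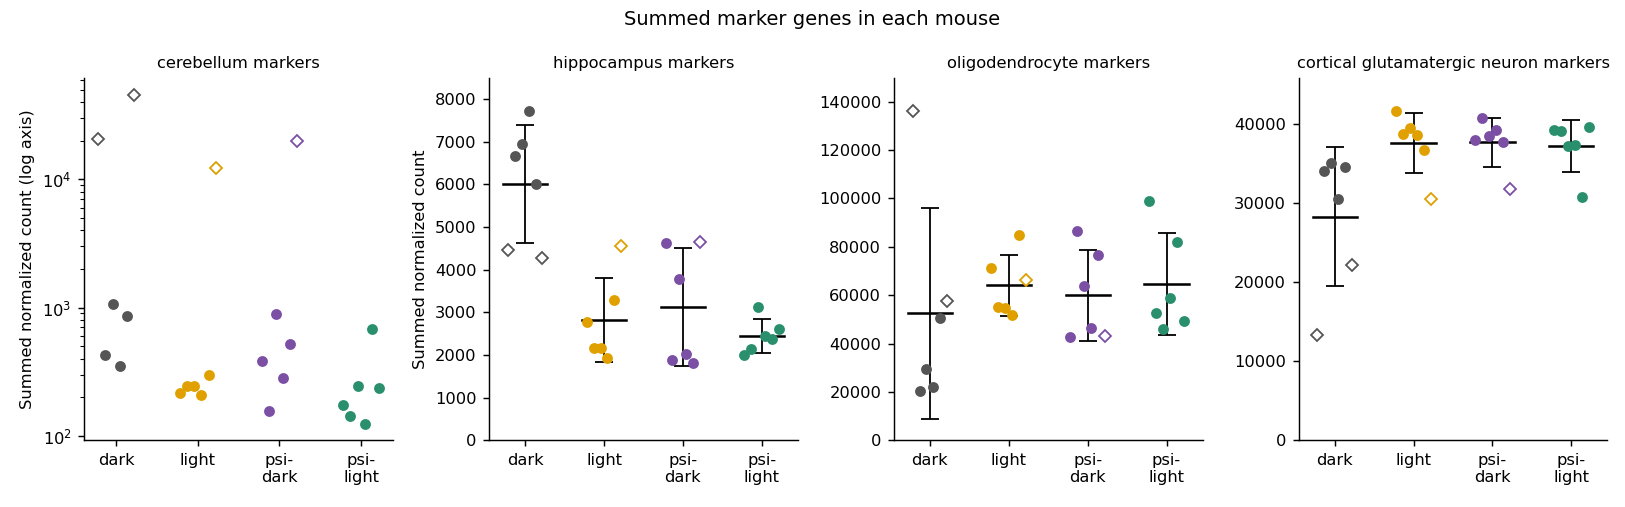
Summed normalized counts of marker genes for cerebellum (log axis), hippocampus, oligodendrocytes and cortical glutamatergic neurons in each mouse by group, with mean and SD on the linear axes. The 4 open diamonds reach 12221 to 45619 for cerebellum, and dark mice 2 to 5 are above the other groups for hippocampus.

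The first question was which of these genes differed between mice in the dark without drug and mice given light, psilocybin or both. Rtn4r, Lingo1 and Rtn4 were higher than in the dark group in all 3 comparisons, and Omg was higher in psilocybin-light mice. No gene of the 7 was lower. In light minus dark, 3 of the 7 genes passed the threshold of an adjusted p under 0.05, beside 31.9% of all tested genes in either direction and 15.4% higher. In psilocybin-dark minus dark, 3 of 7 passed, beside 24.7% in either direction and 11.9% higher. In psilocybin-light minus dark, 4 of 7 passed, beside 38.4% in either direction and 17.4% higher. The median log2 fold change of the 7 genes was 0.30, 0.27 and 0.38, against medians of -0.010, -0.017 and -0.021 over all genes tested. Markers of cortical glutamatergic neurons moved with these genes: 4, 4 and 5 of 8 were higher and 0 lower, with median log2 fold changes of 0.93, 0.94 and 0.82, and their part in the differences was not tested. Without the 4 mice apart, 5 of 8 were higher in each comparison. There Slc17a7, Neurod6 and Fezf2 did not pass, with log2 fold changes between -0.070 and 0.099. The 3 comparisons share the 6 dark mice and are therefore not independent of each other.

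Rtn4r, the Nogo receptor, had the largest difference in light and psilocybin-light mice. Its lowest, median and highest normalized counts were 547, 1065 and 1392 in dark mice, 1692, 2054 and 2203 in light mice, 1413, 1704 and 2077 in psilocybin-dark mice and 1707, 1949 and 2090 in psilocybin-light mice. The dark group thus did not overlap any other group, while the other 3 overlapped one another. Of all tested genes, 5.59% lay wholly above the dark group in light mice, 3.13% in psilocybin-dark mice and 8.28% in psilocybin-light mice, beside 1, 1 and 3 of the 7 genes. The log2 fold change of Rtn4r was 0.96 ± 0.14 (SE) in light mice, or 1.94-fold, with an adjusted p of 2.4e-05 by edgeR's quasi-likelihood test. It was 0.75 ± 0.14 in psilocybin-dark mice (edgeR, adjusted p = 0.000415) and 0.91 ± 0.14 in psilocybin-light mice (edgeR, adjusted p = 2.4e-05). The exact two-sided permutation test gave p = 0.00216 in each comparison, the smallest that 6 mice against 6 can give. Dark mouse 1, the lowest, was also lowest for cortical glutamatergic markers. Without the 4 mice apart, the log2 fold changes of Rtn4r were 0.85, 0.65 and 0.78, with dark mice at 948 to 1392.

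Lingo1, the signalling partner of the receptor, was higher in all 3 comparisons as well, and its 2 lowest dark values were those of mice 1 and 6. Its lowest, median and highest normalized counts were 2329, 6467 and 7346 in dark mice, 6982, 9148 and 10058 in light mice, 6316, 9746 and 10941 in psilocybin-dark mice and 8436, 9778 and 11011 in psilocybin-light mice. Only the psilocybin-light mice were all above the dark mice, and the lowest light and psilocybin-dark mice were mice 18 and 12, also high in cerebellar markers. The log2 fold changes were 0.72 ± 0.21, 0.76 ± 0.21 and 0.84 ± 0.21 (edgeR, adjusted p = 0.0105, 0.00933 and 0.00257). Exact permutation gave p = 0.00649, 0.00866 and 0.00216. Mice 1 and 6 had 2329 and 3059. When the 4 mice apart were left out, dark mice were at 6239 to 7346 and the log2 fold changes were 0.45 ± 0.074, 0.52 ± 0.074 and 0.53 ± 0.072 (edgeR, adjusted p = 5.8e-05, 1.7e-05 and 5.3e-06), so the difference was over 1.5 times smaller on this scale in light and psilocybin-light mice while its error narrowed.

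Of the 2 ligands, Rtn4 was higher in all 3 comparisons by a smaller step. Rtn4 had lowest, median and highest normalized counts of 9142, 10369 and 11928 in dark mice, 10336, 12260 and 13047 in light mice, 11065, 12759 and 13793 in psilocybin-dark mice and 11527, 12701 and 13371 in psilocybin-light mice. Each group overlapped the dark group. The differences amounted to 14%, 20.2% and 19.3% over dark, with log2 fold changes of 0.19 ± 0.063, 0.27 ± 0.063 and 0.25 ± 0.063 (edgeR, adjusted p = 0.0255, 0.00377 and 0.00294). The light difference was the least firm, and its adjusted p by edgeR was 0.07 without dark mouse 4, the lowest for Rtn4, and 0.063 without light mouse 13, the highest light mouse.

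Omg, the other ligand, passed in psilocybin-light mice alone. Its lowest, median and highest normalized counts were 1407, 1645 and 1787 in dark mice, 1444, 1749 and 1822 in light mice, 1572, 1776 and 1931 in psilocybin-dark mice and 1814, 1870 and 2084 in psilocybin-light mice. All psilocybin-light mice were above all dark mice. The log2 fold change was 0.22 ± 0.061 (edgeR, adjusted p = 0.00738; exact permutation p = 0.00216), a difference of 16.2%. In light and psilocybin-dark mice it was 0.066 ± 0.061 and 0.11 ± 0.061, and neither passed (edgeR, adjusted p = 0.441 and 0.182).

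Lynx1 did not pass against dark in any of the 3 comparisons over all 24 mice, and the dark group was spread widely. The lowest, median and highest normalized counts were 2921, 4827 and 7652 in dark mice, 5561, 6439 and 6777 in light mice, 5237, 5799 and 7017 in psilocybin-dark mice and 5594, 6209 and 7251 in psilocybin-light mice. The coefficient of variation was 36.6% in dark mice and 6.63% to 11.3% in the other groups, and the 2 highest dark values were those of mice 6 and 1. The log2 fold changes were 0.36 ± 0.16, 0.28 ± 0.16 and 0.38 ± 0.16 (edgeR, adjusted p = 0.0846, 0.215 and 0.0653). Without the 4 mice apart, dark mice were at 2921 to 5433, and Lynx1 was higher by 0.67 ± 0.13, 0.59 ± 0.13 and 0.69 ± 0.13 on the log2 scale (edgeR, adjusted p = 0.000418, 0.00139 and 0.000166). In the same 20 libraries, 11, 11 and 10 of 11 oligodendrocyte markers were higher, with medians of 1.06, 1.05 and 1.08, and 4 of 6 parvalbumin interneuron markers were higher and 1 lower in each comparison. Of all genes tested over these libraries, 43.1%, 38.3% and 48.2% passed in either direction. The part of the oligodendrocyte and parvalbumin interneuron markers in the Lynx1 difference over the 20 libraries was not tested. Leaving out dark mouse 6 alone was enough for Lynx1 to pass in all 3 comparisons, at 0.54, 0.45 and 0.55 (edgeR, adjusted p = 0.00378, 0.0157 and 0.00257), and without dark mouse 1 it passed in psilocybin-light mice (0.45, adjusted p = 0.0384).

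The relatives of the receptor, Rtn4rl1 and Rtn4rl2, did not pass in any comparison over all 24 mice. Rtn4rl1 had lowest, median and highest normalized counts of 1044, 1467 and 2415 in dark mice, 1517, 2055 and 2340 in light mice, 1339, 1797 and 2110 in psilocybin-dark mice and 1735, 2148 and 2308 in psilocybin-light mice. Rtn4rl2 had 217, 856 and 1195 in dark mice, 748, 923 and 1047 in light mice, 534, 898 and 1072 in psilocybin-dark mice and 858, 995 and 1108 in psilocybin-light mice. For both, the dark group held the lowest and the highest mouse of all 24, and mouse 6 was the lowest. Their 95% intervals against dark ran from -0.26 to 0.72 for Rtn4rl1 and from -0.39 to 0.95 for Rtn4rl2 over the 3 comparisons on the log2 scale. Rtn4rl1 passed when dark mouse 2, its highest, was left out, in light (0.45, edgeR adjusted p = 0.0375) and psilocybin-light mice (0.52, adjusted p = 0.015), and in the latter also without dark mouse 4 (0.47, adjusted p = 0.0339). In the other 20 libraries the log2 fold changes were 0.15, -0.061 and 0.16 for Rtn4rl1 and -0.096, -0.13 and -0.023 for Rtn4rl2.

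**Figure D3:**
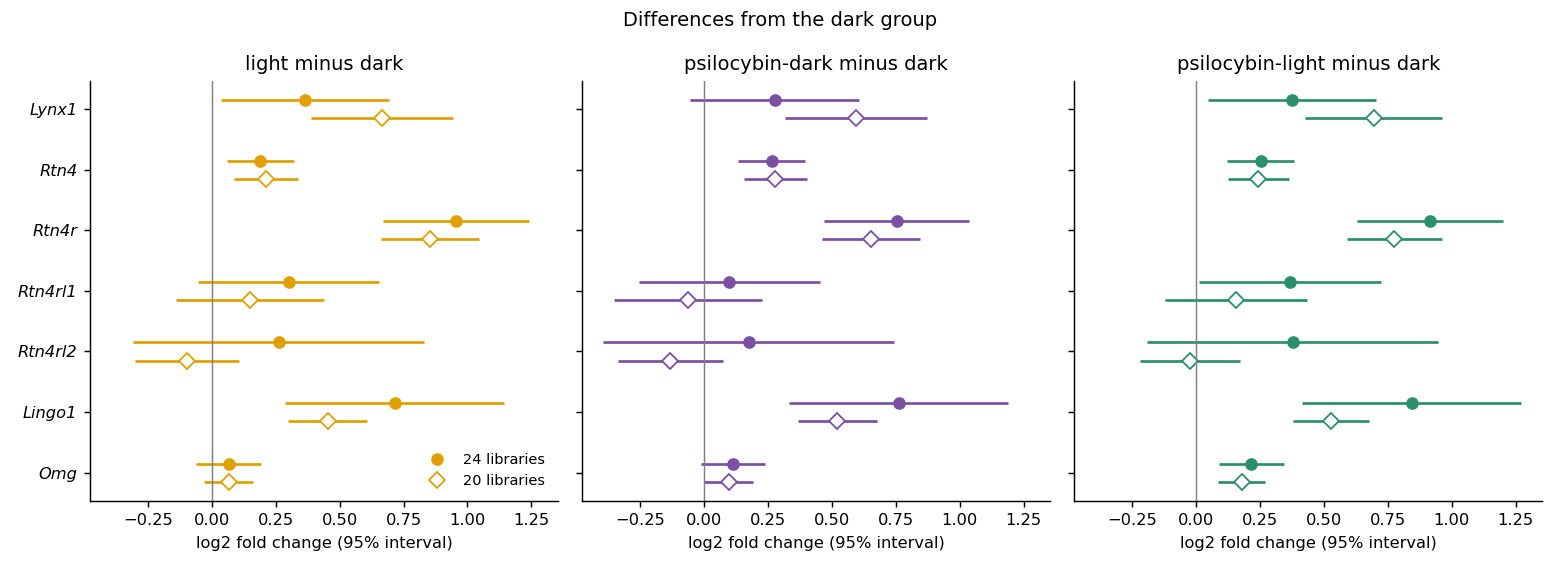
Log2 fold change against the dark group (x axis) with its 95% interval for each of the 7 genes, from all 24 libraries (filled circles) and without the 4 mice high in cerebellar markers (open diamonds). Rtn4r has the values farthest from 0 in light mice, and the intervals of Lynx1, Rtn4rl2 and Lingo1 shift most between the 2 fits.

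Over the 20 libraries, 4, 4 and 5 of the 7 genes passed in light, psilocybin-dark and psilocybin-light mice, beside 43.1%, 38.3% and 48.2% of all genes tested. The summed hippocampal markers were highest in dark mice 2 to 5, while dark mice 1 and 6 lay within the range of the other groups. With the mean log2 value of these markers, not their sum, as a covariate, 0 of the 7 passed in any of the 3. Of all genes tested, 807, 0 and 1017 passed with this covariate, against 4611, 3575 and 5551 without it over all libraries. No gene at all passed in psilocybin-dark mice, so the 0 of 7 there was not particular to these genes. With the covariate, Rtn4r had log2 fold changes of 0.53, 0.32 and 0.44 (edgeR, adjusted p = 0.115, 0.581 and 0.221).

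The second question was whether the light, psilocybin-dark and psilocybin-light groups differed among themselves. By edgeR, 0 of the 7 genes passed in psilocybin-light minus light (0.608% of all tested genes did), 0 in psilocybin-light minus psilocybin-dark (6.38%) and 0 in psilocybin-dark minus light (0.456%). DESeq2 also gave 0 in each, as did edgeR over the 20 libraries (beside 2.34%, 17.2% and 6.03% of all genes tested). At an unadjusted p under 0.05 there was 1 gene in the first of these comparisons and 0 in the other 2. That gene was Omg, 11.1% higher in psilocybin-light than in light mice (log2 fold change 0.15 ± 0.061, edgeR adjusted p = 0.375, exact permutation p = 0.00649). For Rtn4r the interval was -0.32 to 0.24 in psilocybin-light minus light, -0.12 to 0.44 in psilocybin-light minus psilocybin-dark and -0.48 to 0.079 in psilocybin-dark minus light. For Lingo1 the intervals of these comparisons, in the same order, ran from -0.30 to 0.55, from -0.34 to 0.51 and from -0.38 to 0.47. The error of each gene was estimated over all 4 groups, so the widely spread dark mice entered it. Over the 20 libraries, the intervals of Rtn4r in this order were -0.24 to 0.092, -0.047 to 0.29 and -0.37 to -0.022. The last left out 0, with an adjusted p of 0.164 by edgeR. Those of Lingo1 were -0.064 to 0.21, -0.13 to 0.14 and -0.076 to 0.21. Differences within the intervals of each fit were not excluded by the spread in that fit.

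The interaction of light and psilocybin, the psilocybin-light difference from dark less the sum of the 2 single differences, passed for 1 of the 7 genes, beside 8.75% of all genes tested. It was -0.79 ± 0.19 for Rtn4r (edgeR, adjusted p = 0.014). The single differences of Rtn4r were 0.96 and 0.75 and the joint one was 0.91, so the joint difference was smaller than their sum. Lingo1 had -0.63 ± 0.29 and Rtn4 had -0.20 ± 0.089, and neither passed (edgeR, adjusted p = 0.175 and 0.162). In the fit of the 20 libraries, 4 of 7 passed beside 27% of all genes tested, with -0.73 for Rtn4r, -0.45 for Lingo1, -0.57 for Lynx1 and -0.25 for Rtn4.

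Within groups, some of the 7 genes varied together. Deviations of log2 values from the group mean were compared over the 20 libraries with low cerebellar markers, as a description in which the genes share libraries and depth. Rtn4rl1 and Rtn4rl2 had the highest Pearson r, 0.82. Lynx1 and Omg followed at 0.67, the receptor Rtn4r and its partner Lingo1 at 0.65, and the ligands Rtn4 and Omg at 0.62. The lowest value was that of Lynx1 with Rtn4rl2, -0.55. Over all 24 libraries the pattern was different, with Rtn4rl2 and Lingo1 highest at 0.91, Rtn4rl1 and Rtn4rl2 again at 0.82, Rtn4r and Lingo1 at 0.78, Rtn4 and Omg at 0.71, Lynx1 and Omg at -0.084 and Lynx1 and Rtn4rl2 at -0.76. Markers, taken as the mean log2 value of each list, varied with the genes as well over the 20 libraries. The oligodendrocyte mean had r = 0.73 with Lynx1, 0.47 with Omg and -0.64 with Rtn4rl2. The cortical glutamatergic mean had r = 0.77 with Lynx1 and 0.73 with both Rtn4 and Rtn4r. The hippocampal mean had r = -0.65 with Lingo1 and -0.51 with Rtn4r. The parvalbumin interneuron mean had r = 0.73 with Lynx1, 0.056 with Lingo1 and -0.53 with Rtn4rl2. Over all 24 libraries the cortical glutamatergic mean had r = -0.018 with Lynx1, 0.70 with Rtn4 and 0.88 with Rtn4r. The oligodendrocyte mean had r = 0.74 with Lynx1, 0.078 with Omg and -0.63 with Rtn4rl2 there. The parvalbumin interneuron mean had r = 0.77 with Lynx1, -0.86 with Lingo1 and -0.93 with Rtn4rl2 there.

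**Figure D4:**
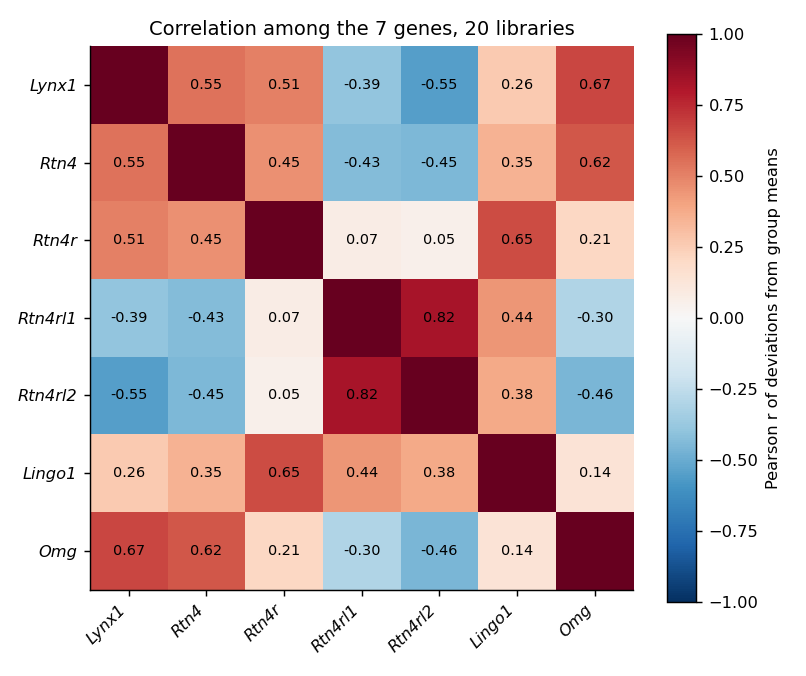
Pearson r between the 7 genes (rows and columns) of deviations from the group mean of log2 values, over 20 libraries, with colour from -1 to 1. Rtn4rl1 and Rtn4rl2 form the pair with the highest value in these libraries, 0.82, and both are negative with Lynx1, Rtn4 and Omg.

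The genes most like each member over the 24 libraries were taken as the 3 with the highest Pearson r of log2 values among the 11118 genes whose mean count reached 100. They were Emx1 (0.98), a transcription factor of cortical excitatory neurons, Dusp14 (0.98) and Fmnl1 (0.96) for Rtn4r. For Lingo1 they were Cx3cl1 (0.99), a chemokine made by neurons, Strn4 (0.99) and Ngef (0.98). For Lynx1 they were Cplx1 (0.97), a complexin of synaptic vesicle release, Scrt1 (0.95) and Hapln4 (0.95), a link protein of the extracellular matrix. Rtn4 was most like Ndfip2 (0.94), Ell2 (0.92) and Pi4ka (0.92), and Omg was most like Dpy19l1 (0.86), Sulf2 (0.86) and Bend5 (0.86). Rtn4rl1 was most like Tmem215 (0.92), Tubg2 (0.91) and Chst1 (0.89), and Rtn4rl2 was most like Tnks1bp1 (0.98), Cacnb1 (0.97) and Chst1 (0.97). Chst1 was thus shared by the relatives of the receptor. Over the 20 libraries without the mice apart, r stayed at 0.97 for Cplx1, 0.98 for Emx1 and 0.97 for Cx3cl1, and was 0.74 for Tnks1bp1 and 0.70 for Dpy19l1.

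Related genes of the same pathways are given for comparison with the members. Among the partners and effectors of the Nogo receptor, 16 of 17 listed were tested, of which 2 rose and 1 fell in light mice, 3 rose and 1 fell with psilocybin in the dark, and 4 rose and 2 fell with both. Co-receptors went in opposite directions: Tnfrsf19, which can take the place of p75 beside Rtn4r, was higher in each comparison (log2 fold change 0.58, 0.55 and 0.54), and Ngfr, which encodes p75, was lower at few counts (-1.44, -1.14 and -1.43, from a dark mean of 45.1 normalized counts). Adgrb1, an adhesion receptor that binds Rtn4r, was higher (0.54, 0.40 and 0.60). Mag, the third myelin ligand, did not pass (0.22, 0.10 and 0.25, edgeR adjusted p = 0.687, 0.874 and 0.637). The medians of this list were 0.10, 0.088 and 0.10. Over the 20 libraries without the mice apart the counts were 4 higher and 3 lower, 6 and 4, and 5 and 5, with Mag among those higher (log2 fold changes between 1.04 and 1.15), beside summed oligodendrocyte markers of 20288 to 50572 in the 4 dark mice left and 42829 to 98993 in the other groups.

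Of the 6 paralogs of Rtn4 and Lingo1, Rtn2 was higher in all 3 comparisons (0.36, 0.20 and 0.38), and Lingo4 was lower in light and psilocybin-light mice (-1.55 and -1.92), at means of 15.4 and 11.8 normalized counts there. Over the 20 libraries Lingo4 did not reach the count needed for a test, and Rtn2 no longer passed in psilocybin-dark mice (0.13). Rtn1, Rtn3, Lingo2 and Lingo3 did not pass in any of the 3 comparisons over 24 libraries. In the fit of 20 libraries, Rtn1 was lower in all 3 (-0.28, -0.30 and -0.31), Lingo3 was higher in all 3 (0.45, 0.45 and 0.48) and Lingo2 was lower in light and psilocybin-light mice (-0.31 and -0.46), while Rtn3 did not pass. The medians of this list were -0.0061, 0.043 and -0.060 over 24 libraries and -0.051, -0.020 and -0.042 over 20.

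On the side of Lynx1, its receptors and relatives did not move one way. Of 9 nicotinic subunits listed 7 were tested. In each comparison 2 were lower and 0 higher, close to the 31.9%, 24.7% and 38.4% of all tested genes that passed in either direction. The 2 lower subunits were Chrna7 (-0.93, -0.79 and -1.01) and Chrnb2 (-0.46, -0.38 and -0.41), of the main receptors to which Lynx1 is known to bind. Chrna4 did not pass (0.27, 0.37 and 0.30). Over the 20 libraries 3 subunits were lower, with Chrna5 added, and Chrnb3 and Chrna6 passed as higher from few counts. Chrnb3 had a median of 6.89 normalized counts in the 6 dark mice. Chrna6 had a dark median of 1.85, with 2 of 6 libraries at 0, so no fold is given. Of 10 relatives in the Ly6 family 7 were tested. Ly6e was higher in all 3 comparisons (0.68, 0.65 and 0.70), and Ly6h (-0.68, -0.83 and -0.61) and Lypd1 (-1.26, -1.06 and -1.55), which also modulate nicotinic receptors, were lower. The medians of the subunits were -0.049, -0.38 and -0.41, and those of the family were -0.32, -0.46 and -0.43. Without the mice apart they were 0.17, -0.26 and -0.21 for the subunits and 0.10, 0.0097 and 0.028 for the family, so that the sign turned for the family in all 3 comparisons and for the subunits in light mice.

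Among 6 other genes reported as brakes, Sema3a, a secreted repellent held in perineuronal nets, was higher in all 3 comparisons (0.98, 1.26 and 0.91), as was B2m, a subunit of class I histocompatibility molecules (0.39, 0.33 and 0.44). The Sema3a receptor genes Nrp1 and Plxna4 were lower in light (-0.53 and -0.46) and psilocybin-light mice (-0.61 and -0.43). The medians of this list were 0.065, -0.019 and 0.036 over 24 libraries and 0.38, 0.30 and 0.50 over 20. In the latter H2-D1, a class I histocompatibility gene, was higher in all 3 comparisons (0.53, 0.49 and 0.67), H2-K1 was higher in psilocybin-light mice (0.39), and Plxna4 was lower in psilocybin-dark mice too (-0.26). In the interaction, 0 genes passed among paralogs, receptor partners and subunits, beside 8.75% of all genes tested. In the Ly6 family 1 was lower, and 1 was lower among the other brakes.

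**Figure D5:**
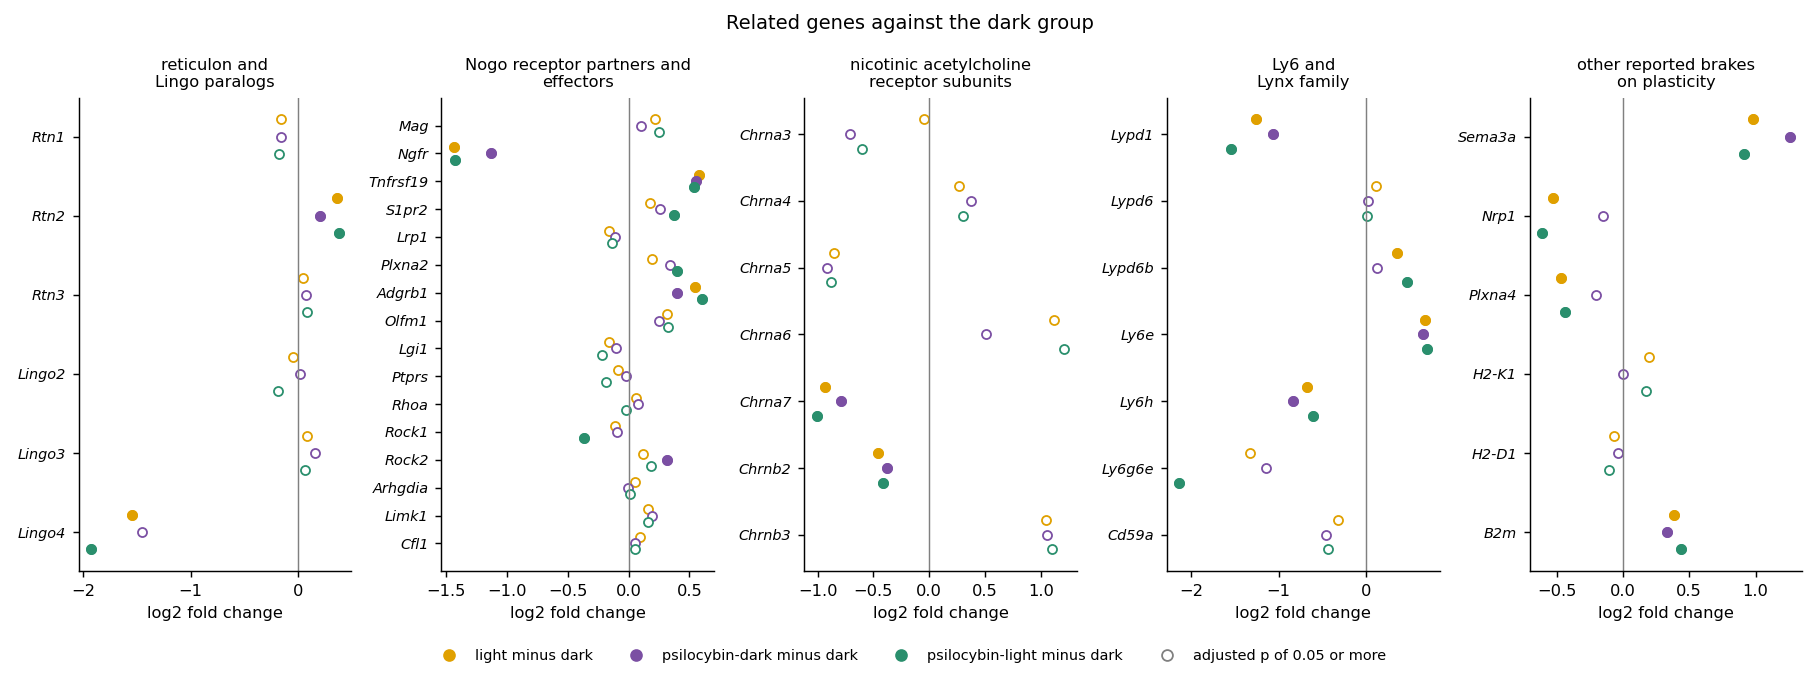
Log2 fold change against the dark group (x axis) of the tested genes of 5 related lists, with filled points at an adjusted p under 0.05 by edgeR and open points otherwise. Within each of the 5 lists some genes are above and others below 0.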

How the data were processed

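RNA from the visual cortex of 24 mice was analysed, in 4 groups of 6. The deposited values are raw counts per gene, which the authors obtained with htseq-count from reads trimmed by cutadapt and aligned to GRCm39 by STAR. The submitters' processing notes list mm10 as the build, and the tools' versions are not given in the sources used here. The GENCODE annotation named 14427 of 14464 genes tested.

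Genes that reached 30 counts in any library were fitted with TMM and edgeR 4.0.16 (quasi-likelihood test, limma 3.58.1, R 4.3.3), with all 24 mice and 1 term per group. P-values were two-sided and adjusted by Benjamini-Hochberg over all genes tested, with a threshold of 0.05. Log2 values used a prior count of 2. Single genes were compared by exact permutation of 6 against 6. The common biological coefficient of variation was 0.182, and the 60 pairs of mice within groups all differed by more than sampling noise. On data simulated for light minus dark over 14464 genes, the fit called 49 of 100 genes changed by 0.5 (log2), 90 of 100 changed by 1 and 4 unchanged genes. The simulation changed only these genes, in the light group, and gave all groups the same spread. In the data many more genes passed and the dark mice were spread more widely, so these rates need not hold there.

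Alternatives were DESeq2 1.42.0, its size factors, filterByExpr, no filter, only the groups compared, 1 surrogate variable (sva 3.50.0), mean log2 values of marker lists as covariates, the sample labels' light exposure, and mice left out. Named genes are the 7 members, genes of the lists, the 3 genes most like each member and genes that overlap a member. The members and lists were chosen with earlier results of these data known. Plots were made in Python 3.11.15 (matplotlib 3.10.9).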

Additional observations from a re-analysis of the deposited data

Results flagged for a closer look

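Single mice far from the others of their group were screened by Dixon's ratio at its 95% critical value, at which chance marks about 1 in 20 groups. Of 28 groups of values of the 7 genes, 1 was marked, and of 16 groups of marker sums, 6 were.

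Omg in light mouse 18, at 1444 normalized counts, lay far below the other light mice, which had 1742 to 1822. The same mouse had 12221 normalized counts summed over cerebellar markers, far above the other light mice. In psilocybin-dark mouse 12 the cerebellar sum was 19857 and the sum of cortical glutamatergic markers 31675, the first far above and the second far below the rest of its group. In psilocybin-light mouse 23 these sums were 685 and 30752, again apart in the same directions. Dark mouse 1 had 136028 normalized counts summed over oligodendrocyte markers.

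Rtn4r differed by a test of the difference itself: its light difference was smaller under psilocybin than without it, with an interaction of -0.79 on the log2 scale (edgeR, adjusted p = 0.014). Over the 24 fits that each left out 1 mouse it ranged from -0.90 to -0.66, with a highest adjusted p of 0.0303. With hippocampal markers as a covariate it did not pass, and 0 of all genes tested did.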

How the results depend on the processing

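The groups of mice were compared under 11 alternative settings and with each mouse left out in turn. No paired analysis was possible because the groups share no replicate numbers. Of the 11 gene differences that passed, counted over all comparisons, all kept their direction and their side of the threshold with DESeq2, with its size factors, with filterByExpr, with 1 surrogate variable, with oligodendrocyte markers as a covariate, without dark mice 1 and 6 and without the 4 mice high in cerebellar markers. With no filter, 1 was lost, and with only the 2 groups compared in the fit, 3 of 10 were. With hippocampal markers as a covariate, all 11 kept their direction and none passed. The cause was not tested.

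Numbers of the 7 genes that passed changed as follows. In light minus dark there were 1 with only the 2 groups, 6 with 1 surrogate variable, 0 with hippocampal and 5 with oligodendrocyte markers. Of all genes tested, 3073, 6075, 807 and 4973 passed in these fits. In psilocybin-dark minus dark there were 0 with hippocampal markers, and in psilocybin-light minus dark 7 with the surrogate variable and 0 with hippocampal markers. The same fits called 0, 6656 and 1017 of all genes tested. In the interaction there were 2 with the surrogate variable, 0 with hippocampal and 2 with oligodendrocyte markers, 2 without dark mice 1 and 6, and 4 without the 4 mice. Among all genes tested, 2870, 0, 1670, 3078 and 3810 passed, in this order. With 1 mouse left out, the numbers ranged from 2 to 4 in light minus dark, 3 to 4 in psilocybin-dark minus dark and 4 to 5 in psilocybin-light minus dark. They were 0 in the other pairs and 1 in the interaction. The numbers of all tested genes that passed in these fits are not given here, so the ranges cannot be set beside them. Rtn4 in light minus dark was lost in 2 of these 24 fits.

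Under the light exposure of GEO's labels, the names dark and light change places by construction. Light minus dark was then -0.36 for Lynx1, -0.19 for Rtn4, -0.96 for Rtn4r, -0.30 for Rtn4rl1, -0.26 for Rtn4rl2, -0.72 for Lingo1 and -0.066 for Omg. Psilocybin-dark minus dark had 0 of these genes past the threshold, beside 88 of all genes tested, with Rtn4r at -0.041. Psilocybin-light minus dark had 0, beside 66, with -0.087 for Lynx1, -0.20 for Rtn4r, -0.20 for Rtn4rl1 and -0.086 for Rtn4rl2. Few of all genes passed in either comparison, so the 0 there was not particular to these genes. Psilocybin-light minus light had 3, beside 3575 of all genes tested, with Rtn4r at 0.75. Psilocybin-dark minus light had 4, beside 5551, with 0.38 for Lynx1, 0.91 for Rtn4r, 0.37 for Rtn4rl1 and 0.38 for Rtn4rl2. Psilocybin-light minus psilocybin-dark was -0.099 for Lynx1, 0.011 for Rtn4, -0.16 for Rtn4r, -0.27 for Rtn4rl1, -0.20 for Rtn4rl2, -0.082 for Lingo1 and -0.10 for Omg. The interaction was 0.27 for Lynx1, 0.20 for Rtn4, 0.79 for Rtn4r, 0.032 for Rtn4rl1, 0.060 for Rtn4rl2, 0.63 for Lingo1 and -0.037 for Omg.

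Other changes of sign were among differences that did not pass. Without dark mice 1 and 6, Rtn4rl2 was at -0.14, -0.23 and -0.022 in light, psilocybin-dark and psilocybin-light minus dark, Rtn4rl1 at -0.12 in psilocybin-dark minus dark, and the interactions were 0.18 for Rtn4rl1 and 0.35 for Rtn4rl2. When the 4 mice were left out, Rtn4rl2 was at -0.096, -0.13 and -0.023, Rtn4rl1 at -0.061 in psilocybin-dark minus dark, and the interactions were 0.067 and 0.20. With hippocampal markers, Lynx1 was at -0.081, -0.023 and -0.039 in psilocybin-dark minus dark, psilocybin-light minus dark and psilocybin-light minus light, Rtn4rl1 at -0.11 in psilocybin-dark minus dark, and the interactions were 0.042 for Lynx1 and 0.15 for Rtn4rl1. With the surrogate variable, psilocybin-light minus light was -0.016 for Rtn4rl1 and -0.050 for Rtn4rl2, and psilocybin-light minus psilocybin-dark was -0.00245 for Lingo1. With 1 mouse left out, the ranges that crossed 0 were, in psilocybin-dark minus dark, -0.012 to 0.35 for Rtn4rl2. In psilocybin-light minus light they were -0.022 to 0.055 for Lynx1 and -0.0012 to 0.12 for Rtn4rl1. In psilocybin-light minus psilocybin-dark they were -0.043 to 0.014 for Rtn4 and -0.0013 to 0.14 for Lingo1, and in psilocybin-dark minus light -0.16 to 0.017 for Rtn4rl2 and -0.015 to 0.13 for Lingo1. In the interaction they were -0.18 to 0.065 for Rtn4rl1, -0.23 to 0.13 for Rtn4rl2 and -0.0075 to 0.075 for Omg.

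For the genes that did not pass, differences within the 95% intervals given are not excluded.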
